A study of Arabidopsis thaliana with 6 samples.

Results

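SPL3 (AT2G33810), FLC (AT5G10140) and SEP1 (AT5G15800) are regulators of phase change and flowering in Arabidopsis thaliana. They were chosen by gene identifier and are 3 of the 1537 genes in the authors' deposited table. RNA was sequenced from whole seedlings of the Columbia ecotype that had grown for 10 days in long days on MS plates. The wild type (WT, Col-0) and the BIC1-YFP line, in which the BIC1 protein is joined to yellow fluorescent protein, are represented by 3 libraries each, called biological replicates in the labels. No source used here names the promoter that drives BIC1-YFP or how many lines were used. The study addressed the part of BIC1, a small inhibitor of blue-light cryptochromes, in brassinosteroid signalling and growth.

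The table holds genes picked beforehand by the authors for differing between WT and BIC1-YFP, with their adjusted p reaching 0.0499 at most. It holds no gene whose absolute deposited log2 fold change is under 0.586. A call here is therefore not independent of that selection, and a flowering gene outside the table was not analysed here. Values are normalized abundances that are not divided by gene length. The total depth of the libraries is unknown. BIC1 itself, the check of the labels, was 35.7-fold higher in the lowest BIC1-YFP library than in the highest WT library. The tissue could not be checked against seedling markers, because genes that did not differ are not in the table.

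SPL3 encodes a small SBP-box transcription factor that promotes the juvenile-to-adult transition and flowering. Its transcript is cut and its translation blocked by the microRNA miR156, whose level falls as the plant ages. FLC encodes a MADS-box repressor that binds the floral promoters FT and SOC1 and is silenced by prolonged cold. SEP1 encodes a MADS-box protein that, with its close relatives, gives floral organs their identity. SPL3 lies at chr2:14305001-14306072 on the plus strand, FLC at chr5:3173382-3179448 and SEP1 at chr5:5151334-5154253, both on the minus strand (RefSeq, TAIR10.1).

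SPL3 and FLC rose in BIC1-YFP and SEP1 fell. SPL3 stood at 18.1, 33.0 and 40.8 units in WT replicates 1, 2 and 3, and at 65.1, 71.8 and 94.9 units in the BIC1-YFP replicates. The genotypes did not overlap, and the lowest BIC1-YFP library was 1.59-fold the highest WT library. The mean went from 30.6 ± 11.6 to 77.3 ± 15.6 units (SD, n = 3), 2.52-fold higher, and the log2 difference was 1.36 ± 0.35 (SE; adjusted p = 0.0181 by limma).

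FLC stood at 63.2, 96.0 and 67.3 units in WT and at 160.2, 149 and 132 units in BIC1-YFP. WT replicate 2 was the highest WT library, and the lowest BIC1-YFP library was still 1.37-fold above it. The FLC mean rose from 75.5 ± 17.9 to 147 ± 14.4 units (SD, n = 3), 1.95-fold, and the log2 difference was 0.97 ± 0.23 (SE; adjusted p = 0.0155 by limma).

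SEP1 was low in every library and moved the other way. It stood at 26.1, 42.0 and 30.5 units in WT and at 5.01, 9.92 and 4.68 units in BIC1-YFP. Replicate 2 was the highest library of both genotypes, and the lowest WT library was 2.63-fold the highest BIC1-YFP library. The mean fell from 32.8 ± 8.20 to 6.53 ± 2.93 units (SD, n = 3), 5.03-fold lower, and the log2 difference was -2.21 ± 0.38 (SE; adjusted p = 0.00663 by limma). In whole seedlings, fewer cells that express a gene and less RNA per cell cannot be told apart.

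**Figure D1:**
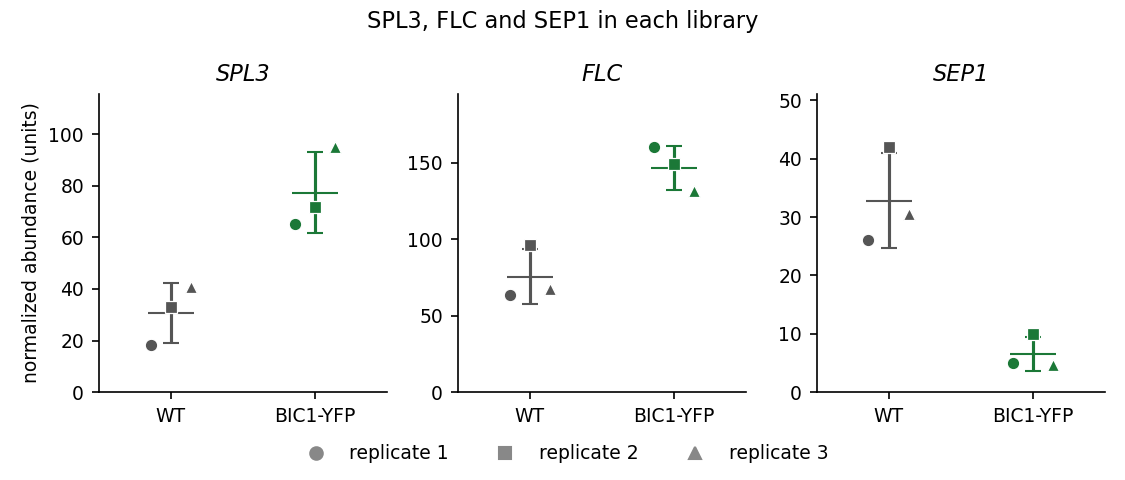
Normalized abundance of SPL3, FLC and SEP1 in each library (y axis, units; each panel starts at 0), with WT in grey and BIC1-YFP in green. Horizontal lines are means and bars SD over 3 libraries; the genotypes do not overlap for any of the 3 genes, with SPL3 and FLC higher and SEP1 lower in BIC1-YFP.

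Among the 1531 genes tested, 37.6% were called higher and 39.1% lower in BIC1-YFP, and the genotypes did not overlap for 76.0%, so calls of this kind were common in the selected table. By p-value SEP1 stood at rank 145, FLC at rank 369 and SPL3 at rank 451. A two-sided exact permutation test gave p = 0.1 for each of the 3 genes, which is the smallest p that 3 libraries against 3 allow. The spread within a genotype differed between the genes. For SPL3 the SD was 37.7% of the mean in WT and 20.2% in BIC1-YFP, for FLC 23.7% and 9.82%, and for SEP1 25.0% and 44.9%. SEP1 was called in all 6 fits that each omit a library. SPL3 and FLC were called in 5 of these 6 fits and missed the threshold without BIC1-YFP replicate 2 (adjusted p = 0.0511 and 0.0504 by limma), while their log2 fold changes there were 1.41 and 0.96. Adjusted over 21574 tests, none of the 3 passed (limma, adjusted p = 0.255 for SPL3, 0.219 for FLC and 0.0934 for SEP1). Each had an unadjusted limma p under 0.05. The number 21574 is the least that the deposited p-values of 644 genes allow, with SPL3, FLC and SEP1 among them. These are the genes whose deposited log2 fold change is nearer 0 than the log2 ratio of means.

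**Figure D2:**
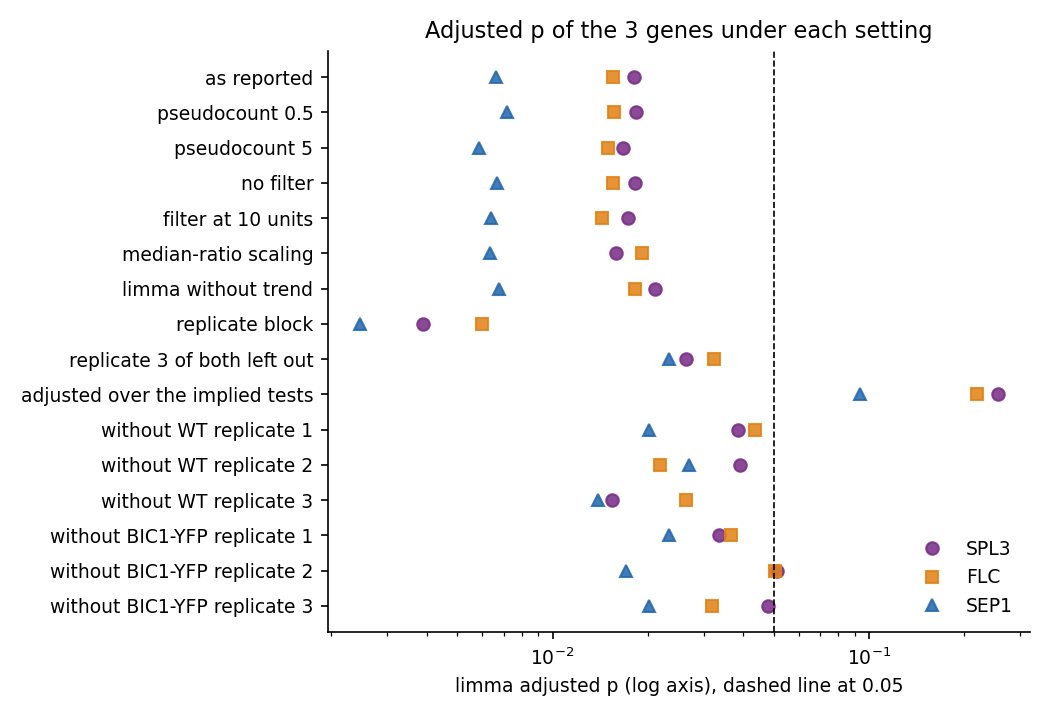
Adjusted p from limma (x axis, log scale) for SPL3, FLC and SEP1 under the reported setting and each alternative (y axis), with a dashed line at 0.05. SEP1 passes everywhere except with adjustment over 21574 tests, and SPL3 and FLC also sit just past the line without BIC1-YFP replicate 2 (0.0511 and 0.0504).

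Divided by the exon length of the longest RefSeq transcript (981 bases for SPL3, 1042 for FLC and 1535 for SEP1), the mean level in WT was 72.5 ± 17.2 units per kb for FLC, 31.2 ± 11.8 for SPL3 and 21.4 ± 5.34 for SEP1. SPL3 and SEP1 differed there by less than the SD of SPL3. In BIC1-YFP the order was the same, at 141 ± 13.8 units per kb for FLC, 78.8 ± 16.0 for SPL3 and 4.26 ± 1.91 for SEP1, and each step was larger than the SDs. These levels carry the uncertainty that no source used here says which transcripts the authors counted. They also assume that no library was already divided by gene length.

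Each of the 3 genes overlaps a transcript annotated on the opposite strand. The long noncoding RNA AT5G01675 covers all 6067 bases of FLC, the noncoding AT2G33815 covers 1046 bases of SPL3, and AT5G02455 and AT5G15790 cover 449 and 100 bases of SEP1. Antisense transcripts of FLC, known as COOLAIR, take part in its silencing by cold. No source used here says whether reads were counted by strand, so reads of a gene and of its antisense partner cannot be told apart.

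The SPL family was represented by SPL3, SPL4 (AT1G53160) and SPL15 (AT3G57920), 3 of its 17 genes, and these did not move together. Each carries a stretch complementary to miR156; these stretches are printed because they are the feature the genes share. Of the 17 SPL genes, 11 held a stretch with at most 3 mismatches to miR156a, counting only Watson-Crick pairs, and the other 6 had 6 to 8. Capitals mark the seed of the microRNA (bases 2 to 8) and, in the sites, the bases opposite it. All sequences are 5′ to 3′ from RefSeq, TAIR10.1.
miR156a-5p: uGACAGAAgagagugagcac
SPL3 site: uugcuuacucucUUCUGUCa
SPL4 site: cugcucucucucUUCUGUCa
SPL15 site: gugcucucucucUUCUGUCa

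The mature sequence is read from chr2:10676534-10676553 on the minus strand, and 6 annotated miR156 loci share it. The SPL3 site, at chr2:14305878-14305897 on the plus strand, and the SPL4 site, at chr1:19807090-19807109 on the plus strand, lie in the 3′ UTR and have 2 mismatches each. The SPL15 site, at chr3:21444834-21444853 on the minus strand, lies in the coding sequence and has 1 mismatch. The seed match is complete in the 3 sites, and the SPL15 site is identical in 8 SPL genes. On the opposite strand of SPL4, the annotation places the miR156i precursor over 197 bases that include the site, and AT3G57910 covers all 1793 bases of SPL15. RefSeq lists 15 loci of miR156 and miR172, the next microRNA of the ageing pathway, and 0 of them are in the table. Most genes are absent from the table, so this is not read as a result.

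SPL4, which like SPL3 encodes a short SBP-box protein, stood at 41.1, 54.0 and 103 units in WT and at 28.0, 31.0 and 31.0 units in BIC1-YFP. WT replicate 3 stood well above the other WT libraries, and the BIC1-YFP libraries lay close together below all WT libraries. Its mean fell from 66.2 ± 32.9 to 30.0 ± 1.71 units (SD, n = 3), and the log2 difference was -1.01 ± 0.36 (SE; adjusted p = 0.0374 by limma). This call was lost in 5 of the 6 fits with a library left out, with an adjusted p of up to 0.0827, and without WT replicate 3 the log2 fold change of SPL4 was -0.64 (limma, adjusted p = 0.0674).

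SPL15, which acts in the shoot meristem to promote flowering, stood at 67.2, 48.8 and 22.2 units in WT and at 28.0, 24.6 and 26.5 units in BIC1-YFP. WT replicate 3 was below all BIC1-YFP libraries, so the genotypes overlapped. SPL15 was not called (log2 difference -0.65 ± 0.41 SE, adjusted p = 0.166 by limma), and without WT replicate 3 it was called lower (log2 fold change -1.09, limma, adjusted p = 0.0217). The ratio of SPL3 to SPL4 within a library, chosen after the values were seen, was 0.439, 0.611 and 0.394 in WT and 2.32, 2.32 and 3.07 in BIC1-YFP. That of SPL3 to SPL15 was more spread in WT, at 0.269, 0.676 and 1.84, and stood at 2.32, 2.92 and 3.58 in BIC1-YFP. These ratios restate the values of the genes and are no added test.

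**Figure D3:**
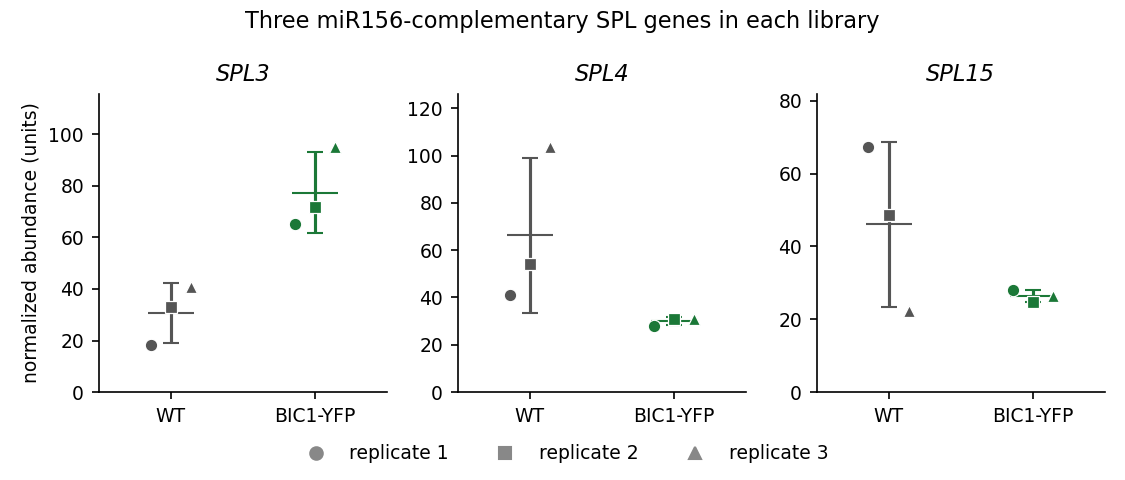
Normalized abundance of SPL3, SPL4 and SPL15 in each library (y axis, units; each panel starts at 0), with WT in grey and BIC1-YFP in green; lines are means and bars SD over 3 libraries. SPL3 is higher in all BIC1-YFP libraries, SPL4 is lower in all of them, and SPL15 overlaps between the genotypes because WT replicate 3 is at 22.2 units.

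Of 12 floral repressor genes, FLC and TEM2 (AT1G68840), a transcription factor that represses FT, were in the table, and both rose. Among all genes tested, 37.6% were called higher. TEM2 stood at 3033, 4302 and 4538 units in WT and at 5236, 5244 and 7176 units in BIC1-YFP. The genotypes did not overlap, and the mean was 1.49-fold higher (3958 ± 809.5 against 5885 ± 1118 units, SD, n = 3; log2 difference 0.58 ± 0.21 SE, adjusted p = 0.0378 by limma). The TEM2 call was lost in 5 of the 6 fits with a library left out (adjusted p up to 0.101) and without the variance trend (limma, adjusted p = 0.0655).

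Of 13 floral integrator genes, which pass the flowering signals on to the meristem, FT (AT1G65480) alone was in the table. FT, whose protein is the mobile flowering signal and whose gene FLC is known to repress, stood at 9.03, 37.7 and 15.4 units in WT and at 1.00, 14.7 and 5.69 units in BIC1-YFP. Its genotypes overlapped, and it did not pass in the reported setting (log2 difference -1.64 ± 0.83 SE, adjusted p = 0.0982 by limma). At each replicate number FT was lower in BIC1-YFP, and it passed with that number as a block (limma, adjusted p = 0.0111). What a replicate number shares is not stated. None of the 17 genes listed as upstream regulators of FLC (autonomous pathway, FRIGIDA and vernalization) was in the table, and their levels were not analysed here. The table holds 1537 genes, where the deposited p-values of 644 of them imply at least 21574 tests. The absence of a list this short is therefore not read as a result about these genes.

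SEP1, AGL6 (AT2G45650) and SHP1 (AT3G58780) were the 3 genes of the 11 floral organ MADS genes in the table, and they went in both directions. AGL6, a close relative of the SEP genes, stood at 2.01, 1.67 and 2.30 units in WT and at 11.0, 6.47 and 7.60 units in BIC1-YFP. It rose 4.19-fold from a very low level (log2 difference 1.62 ± 0.41 SE, adjusted p = 0.0183 by limma). SHP1, which acts in carpels and fruit, stood at 7.03, 1.56 and 6.74 units in WT and at 21.0, 13.8 and 20.6 units in BIC1-YFP. It rose 3.62-fold (log2 difference 1.82 ± 0.53 SE, adjusted p = 0.0231 by limma). With a library left out in turn, AGL6 was called in 4 and SHP1 in 3 of the 6 fits. The values of the 3 genes summed to between 35.1 and 45.2 units per library in WT and between 30.2 and 37.0 in BIC1-YFP, and none of the 3 was at 0 in any library. Their part as markers of floral tissue in the SEP1 result was not tested.

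Among markers of other organs, 2 of 15 root genes were in the table, and both fell, where 39.1% of all genes tested were called lower. PRP1 (AT1G54970) and PRP3 (AT3G62680), cell wall proteins of root hairs, summed to between 298 and 479 units in WT and between 172 and 245 in BIC1-YFP (limma, adjusted p = 0.0198 and 0.0230). With a library left out in turn, PRP1 was called in 4 of the 6 fits (adjusted p up to 0.0534) and PRP3 in 2 (up to 0.0626). Of 8 seed storage genes, CRA1 (AT5G44120) was in the table and was not called (limma, adjusted p = 0.177); BIC1-YFP replicate 2 held 83.6 units of it, and the other libraries 0.219 to 6.94. The part of root or seed tissue in the changes of SPL3, FLC and SEP1 was not tested.

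Photoperiod genes, which set the daily window for FT induction, were higher where they were called. Of 17 such genes, 5 were in the table and 3 rose, where 37.6% of all genes tested were called higher. CDF2 (AT5G39660), a DOF-type repressor of CO and FT, rose from 80.8 ± 4.78 to 149 ± 12.5 units (SD, n = 3), 1.85-fold (limma, adjusted p = 0.0115). Its relative CDF1 (AT5G62430) rose 1.79-fold, from 45.5 ± 10.2 to 81.4 ± 14.1 units (limma, adjusted p = 0.0267), and was called in 2 of the 6 fits with a library left out. LUX (AT3G46640), a component of the evening complex of the clock, rose 1.58-fold, from 813 ± 80.2 to 1282 ± 43.1 units (limma, adjusted p = 0.0123). CDF2 and LUX were called in each of the 6 fits with a library left out. GI (AT1G22770), which helps to remove CDF proteins, stood at 106, 79.8 and 43.3 units in WT and at 176, 136 and 83.6 in BIC1-YFP; it overlapped and did not pass (limma, adjusted p = 0.0965). CDF3 (AT3G47500), at 15.2 ± 7.29 and 31.7 ± 16.8 units, did not pass either (limma, adjusted p = 0.118). GI and CDF3 were higher in BIC1-YFP at each replicate number. Both passed with that number as a block (limma, adjusted p = 0.00649 and 0.0215).

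In all, 14 of the 93 genes in 7 flowering lists were in the table, and 8 rose, 2 fell (SEP1 and SPL4) and 4 were not called. In the table as a whole 76.6% of the tested genes were called, 37.6% higher and 39.1% lower. The table itself holds 1537 genes, where the deposited p-values of 644 of them imply at least 21574 tests by the authors. The median log2 fold change of the 14 genes was 0.82, beside 0.56 for all genes tested. The median over all genes moved between 0.30 and 0.58 with 1 library left out. The table holds no deposited change nearer 0 than 0.586, so neither median is read as a general rise. The count of 10 calls went down to 4 without BIC1-YFP replicate 2 and to 6 without any of WT replicate 2 and BIC1-YFP replicates 1 and 3, omitted singly. The genes of 2 lists, AP2-like repressors and FLC regulators, had no member in the table.

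**Figure D4:**
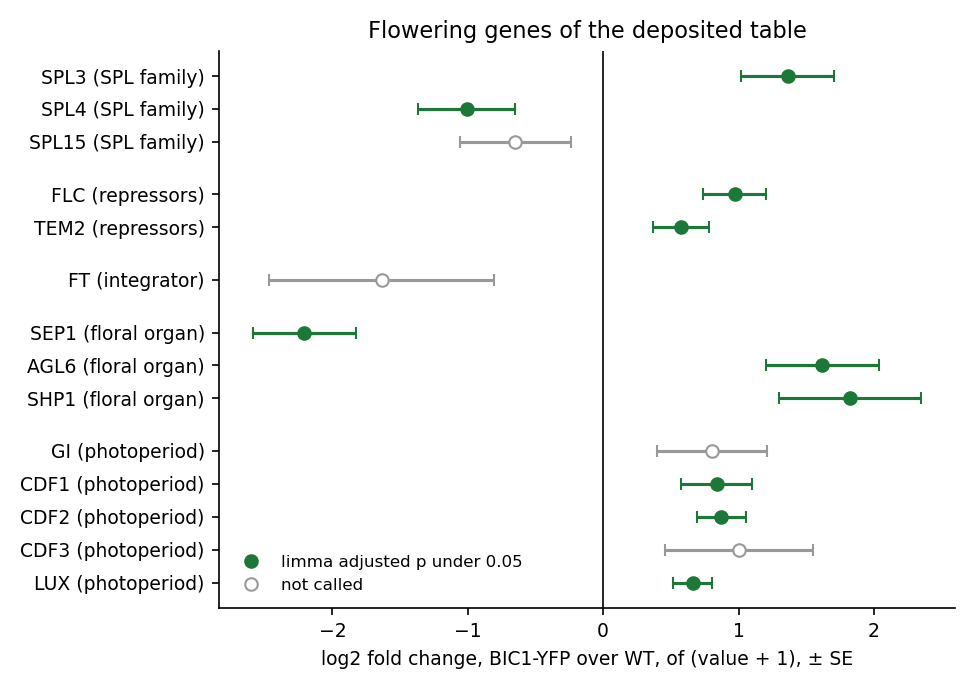
Log2 fold change (BIC1-YFP over WT, x axis) with its standard error for the 14 flowering genes in the table, by role (y axis); filled points have a limma adjusted p under 0.05. SPL3 (1.36) and SPL4 (-1.01) lie on opposite sides of 0, as do SEP1 (-2.21) and AGL6 (1.62).

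Promoter windows of the 3 genes are shown because BIC1 is reported to act with transcription factors that bind E-box and G-box elements; the data hold no binding. Each is the 250 bases before the annotated gene start, in the direction of transcription. Capitals mark every match to GTAC (the core bound by SBP-box proteins), CANNTG (the E-box, of which the G-box CACGTG is a form), CGTGTG (a form of the brassinosteroid response element) and the CArG box of MADS proteins, on both strands. The other form of that element, CGTGCG, was searched in the same way.
SPL3 (chr2:14304751-14305000, plus strand): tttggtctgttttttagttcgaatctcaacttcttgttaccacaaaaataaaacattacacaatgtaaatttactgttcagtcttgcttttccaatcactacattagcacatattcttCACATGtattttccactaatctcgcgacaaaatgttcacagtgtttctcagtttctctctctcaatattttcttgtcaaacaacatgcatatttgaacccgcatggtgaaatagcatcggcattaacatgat
FLC (chr5:3179449-3179698, minus strand): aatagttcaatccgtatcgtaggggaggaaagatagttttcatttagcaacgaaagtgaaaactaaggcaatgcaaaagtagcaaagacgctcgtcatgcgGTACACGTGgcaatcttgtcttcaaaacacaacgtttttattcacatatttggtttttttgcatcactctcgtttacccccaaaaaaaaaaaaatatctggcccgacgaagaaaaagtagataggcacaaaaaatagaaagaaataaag
SEP1 (chr5:5154254-5154503, minus strand): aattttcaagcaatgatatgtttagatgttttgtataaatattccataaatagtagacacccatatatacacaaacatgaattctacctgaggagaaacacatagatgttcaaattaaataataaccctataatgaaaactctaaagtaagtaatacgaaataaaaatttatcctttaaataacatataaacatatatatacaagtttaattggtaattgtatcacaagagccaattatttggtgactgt

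The FLC window, which lies within the antisense RNA AT5G01675 for part of its length, held 1 CACGTG at position -146 from the gene start and 1 GTAC at position -149, which share a base. A CACGTG was present in 6.49% of the 27443 protein-coding promoter windows of this length, and GTAC in 34.3%. The SPL3 window held 1 CANNTG at position -132, a motif found in 55.3% of windows. The SEP1 window, with 24.8% G and C, held none of the motifs. The brassinosteroid response element matched in none of the 3 windows in either form; CGTGTG was found in 5.37% of all windows and the form CGTGCG in 1.57%. The CArG box matched in none of the 3 windows and in 2.52% of all. A match is a description of letters only.

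The genes whose profile over the 6 libraries was most like that of each member were ranked by Pearson's r of log2(value + 1) among 1478 genes with a mean of at least 10 units in the higher genotype. The difference between genotypes raises these r values, and they are given as a description. For SPL3 they were AT5G65925, an unknown protein (r = 0.997), ZCF37 (AT1G59590, r = 0.993) and the glycosyltransferase gene AT2G36780 (r = 0.992). AT5G65925 rose from 195 ± 37.2 to 313 ± 28.6 units (SD, n = 3; limma, adjusted p = 0.0234). For FLC they were AT3G01260, a galactose mutarotase-like gene (r = 0.994), the carbohydrate kinase gene AT1G50390 (r = 0.994) and the cytochrome b561 gene AT4G18260 (r = 0.993). AT3G01260 rose from 159 ± 25.6 to 296 ± 30.9 units (limma, adjusted p = 0.0125). For SEP1 they were the methyl esterase gene MES8 (AT2G23590, r = 0.996), AT3G51750, an unknown protein (r = 0.996), and the oxygenase gene AT1G52800 (r = 0.994). AT3G51750 fell from 119.8 ± 18.3 to 37.1 ± 10.4 units (limma, adjusted p = 0.00539).

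Of the 18 protein-coding genes within 3 genes on either side of a member, 1 was in the table. AT2G33830, annotated as a dormancy and auxin associated gene and the next gene but one after SPL3, stood at 486, 979.8 and 2214 units in WT and at 1512, 3099 and 4767 units in BIC1-YFP. The genotypes overlapped and it narrowly missed the threshold (log2 difference 1.47 ± 0.61 SE, adjusted p = 0.0574 by limma). AT2G33830 was called higher without WT replicate 3 (limma, adjusted p = 0.0206), without BIC1-YFP replicate 1 (0.0398), without replicate 3 of both genotypes (0.0266) and with median-ratio scaling (0.0424).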

How the data were processed

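Abundance was taken as the authors deposited it, a normalized signal per gene and library. The submitters' processing notes name TAIR10 and Cufflinks, and no source used here names the aligner, the read counter or the authors' test. Values under 15 lay within 0.1 of a whole number for 100% of genes in replicate 1 of both genotypes, which a division by gene length would not leave. In the other libraries 19.1% to 25.4% did, so there the absence of such a division was assumed. Whole reads could not be taken back, so the planned count tests were not run, and depth is unknown. The deposited log2 fold changes and p-values of the authors are quoted only among the closing observations.

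Genes with at least 1 unit in 3 or more libraries were kept (1531 of 1537). The genotypes were compared on log2(value + 1) in limma 3.58.1 (R 4.3.3) using a variance trend and no covariate, and called at a Benjamini-Hochberg adjusted p under 0.05. This scale understates the change of low genes such as SEP1, AGL6 and SHP1. Folds are ratios of means. Exact tests used scipy 1.17.1. The code of the fit was checked on simulated counts, whose spread and share of changed genes were set and not taken from these data. P-values measure only the spread between these libraries. The members and the gene lists were chosen with earlier results of these data known. Named genes are the members, the list genes in the table, BIC1, the 3 most similar genes per member and neighbours in the table. Sequences and coordinates are from RefSeq, TAIR10.1; the deposited table holds no coordinates.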

Additional observations from a re-analysis of the deposited data

How the results depend on the processing

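No named gene changed direction in any alternative. The calls of SPL3, FLC and SEP1 held with pseudocounts of 0.5 and 5, no filter, a filter at 10 units, median-ratio scaling, no variance trend, and both replicates 3 omitted. Adjustment over 21574 tests left the log2 fold changes of SPL3 (1.36), FLC (0.97) and SEP1 (-2.21) as they were and ended the 3 calls, by counting many more tests; 50 genes of all tested were then called, against 1173 in the reported setting. Of the flowering-list genes 0 were then called with limma, although 10 had an unadjusted p under 0.05. Leaving out 1 library gave log2 fold changes of 1.04 to 1.60 for SPL3, 0.86 to 1.15 for FLC and -2.51 to -2.02 for SEP1, 441 to 1219 calls over the table and 4 to 10 flowering calls. The count over all tested genes was 615 and 607 when WT replicate 1 or 2 was omitted, and 441 and 710 when BIC1-YFP replicate 2 or 3 was; the cause was not tested. The labels give both genotypes the same replicate numbers. No source used here says what a number shares, so the reported setting has no block. In their deviations, same-numbered libraries correlated at 0.41, 0.04 and 0.43 for replicates 1, 2 and 3. Libraries of different numbers correlated at -0.43 to 0.09, the highest being BIC1-YFP replicate 2 with WT replicate 1. Replicate 1 of both genotypes also shared values near whole numbers. Whether a number marks a shared batch was not tested. With the replicate block, 1445 genes and 13 flowering genes were called, and FT (limma, adjusted p = 0.0111), GI (0.00649), CDF3 (0.0215), CRA1 (0.0395) and AT2G33830 (8.60e-04) passed; SPL3, FLC and SEP1 stayed called at 1.36, 0.97 and -2.21. Of the 19 other named genes that were called, 5 held with each library left out in turn. The number of libraries and the unknown depth limit all values, among them those of low genes such as SEP1, AGL6, SHP1, FT, CRA1 and AT1G50390.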

Other observations

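The fold changes in the authors' deposited table differ from the library values for these genes. In the authors' deposited table the log2 fold change was 0.87 for SPL3, 0.76 for FLC and -0.98 for SEP1, where the log2 ratio of the mean abundances was 1.34, 0.96 and -2.33. The deposited value was nearer to 0 than the log2 ratio of means for 644 genes, at a median of 0.806 times that ratio (5th to 95th percentile 0.380 to 0.927), and farther from 0 for the other 893. For these 893 genes the factor was nearly constant, with a median of 1.44 (5th to 95th percentile 1.39 to 1.46), and for 866 of them it lay within 5% of 1.443, which is 1 divided by the natural log of 2. Multiplied by the natural log of 2, most deposited values of this group lay near the log2 ratio of means. The reason for this factor was not tested. For SPL15, FT and GI the authors' deposited table gave -1.17, -2.17 and 1.13, which multiplied by the natural log of 2 are -0.81, -1.50 and 0.79, beside log2 ratios of means of -0.80, -1.54 and 0.79. SPL3, FLC and SEP1 are in the first group, with factors of 0.648, 0.787 and 0.420. The factor was thus nearly constant in the group of 893 and differed from gene to gene in the group of 644. No source used here says how the deposited column was made. The adjusted p in the authors' deposited table was 0.00303 for SPL3, 0.00238 for FLC and 8.97e-04 for SEP1, and 0.00266 for FT, whose genotypes overlapped. The authors' unadjusted p was 8.44e-05 for FT and 6.69e-05 for SPL3, the reverse of the order of their adjusted p. A single Benjamini-Hochberg adjustment cannot give this, so the adjusted p of FT and SPL3 are not compared. FT was lower in BIC1-YFP at each replicate number.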
